A study of Mus musculus with 4 samples.

Results

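The 9 genes of lipid-handling macrophages examined here were followed in mouse heart sections after myocardial infarction (MI): Spp1, Lgals3, Apoe, Trem2, Gpnmb, Fabp5, Abca1, Abcg1 and Plin2. They were chosen by gene symbol, are 9 of the 32285 genes of the deposited tables, and all 9 were counted in every section. The data are Visium spatial transcriptomes, in which RNA of a tissue section is counted as unique molecular identifiers (UMIs) at printed spots, each of which can hold several cells of different types. Each of the 4 sections came from 1 mouse: a female adult ICR (CD1) mouse killed at day 1, 4, 7 or 14 after the left anterior descending coronary artery (LAD) had been tied off for good. ICR is an outbred stock, all 4 mice carried the ligation, and an uninjured or sham-operated section was not analysed here, so every comparison is between parts of injured hearts or between single hearts. With 1 section a day there was no replicate of any day, and differences between days were given as values without a test.

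In healing tissue, macrophages take up dead cells and their lipids, store cholesterol esters and triglycerides in lipid droplets, and export cholesterol to apolipoprotein particles. TREM2 is a surface receptor for lipids and apolipoproteins that signals through the adaptor TYROBP, and TREM2 macrophages with high SPP1, GPNMB, FABP5 and LGALS3 have been described in injured, fibrotic and lipid-laden tissues, the heart included. The cholesterol exporters ABCA1 and ABCG1 and the particle protein APOE are targets of the liver X receptors (LXR), sterol-sensing nuclear receptors.

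The regulatory sequence in front of the genes is shown because their levels differed widely between parts of the same section. RefSeq promoters (assembly GRCm38.p6, the mm10 build of the files) were found for 7 of the 9 genes, and the 250 bases before the most upstream RefSeq start were searched on both strands for 5 motifs: the E-box CACGTG and the M-box CATGTG of MITF/TFE factors, the AP-1 site TGANTCA, the PU.1 site GAGGAAGT and the LXR element of the DR4 type. Each sequence below is written 5′ to 3′ on the gene's own strand, with matches in capitals.
Spp1, chr5:104434861-104435110, plus strand: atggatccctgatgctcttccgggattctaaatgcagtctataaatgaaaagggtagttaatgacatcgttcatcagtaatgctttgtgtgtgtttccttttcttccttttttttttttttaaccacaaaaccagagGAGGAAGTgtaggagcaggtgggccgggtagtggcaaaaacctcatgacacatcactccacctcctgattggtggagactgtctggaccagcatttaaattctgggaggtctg
Trem2, chr17:48346151-48346400, plus strand: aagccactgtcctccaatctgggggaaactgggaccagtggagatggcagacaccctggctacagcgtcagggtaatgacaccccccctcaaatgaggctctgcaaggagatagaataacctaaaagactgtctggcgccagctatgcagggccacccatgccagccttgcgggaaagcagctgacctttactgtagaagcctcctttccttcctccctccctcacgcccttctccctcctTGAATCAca
Abca1, chr4:53159896-53160145, minus strand: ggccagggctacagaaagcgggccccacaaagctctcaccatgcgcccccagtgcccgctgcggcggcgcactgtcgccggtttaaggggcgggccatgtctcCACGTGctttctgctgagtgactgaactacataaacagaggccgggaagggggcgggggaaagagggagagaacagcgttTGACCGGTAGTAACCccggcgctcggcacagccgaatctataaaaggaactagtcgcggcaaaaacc
Apoe, chr7:19699189-19699438, minus strand: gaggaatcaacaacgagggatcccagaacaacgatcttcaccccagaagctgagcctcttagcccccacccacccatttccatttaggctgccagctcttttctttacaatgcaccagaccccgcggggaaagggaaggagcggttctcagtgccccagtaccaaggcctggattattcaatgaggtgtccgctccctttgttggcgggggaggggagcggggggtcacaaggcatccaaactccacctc
The Spp1 window held 1 PU.1 match, beginning 113 bases before the start, and PU.1 is the master factor of the macrophage lineage. In the Trem2 window, 1 match to the AP-1 pattern began 9 bases before the start. The pattern allows any base at its N, here and in the share given below, and this match reads TGAATCA. The Abca1 window held an E-box 147 bases before the start and, read on the opposite strand, the LXR element 67 bases before it; the letters of this element are those known for genes of this kind, so that match is no finding. The windows of Apoe, Gpnmb, Lgals3 and Plin2 held none of the 5 motifs, and for Fabp5 and Abcg1 no sequence is shown. Over 27025 RefSeq promoter windows of this length, the PU.1 letters occurred in 2.42%, the AP-1 letters in 6.85%, the E-box in 6.04%, the M-box in 12.2% and the LXR letters in 0.0333%. A match of letters is a description and not a measured binding site.

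After spots in which hemoglobin genes made up over 1% of UMIs were removed, 7503 of 9102 spots were kept, 1679 to 2086 a section, with 9292678 to 15713779 UMIs a section. Within each section, the spots were ranked on the share of Myh6 and Myl2, 2 genes of the cardiomyocyte sarcomere, and cut into 4 equal groups of 419 to 522 spots, of which the lowest is called the low-myocyte group and the highest the high-myocyte group. Where 4 values stand in a row below, they are those of days 1, 4, 7 and 14, in that order. Spots of the low-myocyte group held a median Myh6 and Myl2 share of 0.755%, 0.154%, 0.200% and 1.01%, so this group was not equally free of muscle on all days. The median share in the high-myocyte group was 2.53% to 2.78%. Levels are given as CPM, the UMIs of a gene per 1000000 UMIs of the same group of spots. Their 95% intervals are exact Poisson intervals, those of ratios are exact conditional ones, and both cover counting error only. The same barcodes recur between sections (2538 of 3178 occurred in more than 1) because they name printed slide positions, not cells. Against the cell types expected, all 12 genes of a macrophage list that holds none of the 9 genes were detected in the low-myocyte group of every section, at a summed level of 634, 2462, 2305 and 910 CPM, against 183 to 263 CPM in the high-myocyte group. The same group also held more RNA of a collagen list (2064, 38086, 39768 and 7753 CPM) and of the monocyte and neutrophil lists. The collagen list holds 6 genes, of which Postn, for periostin, is not a collagen. The neutrophil list stood at 439, 159, 107 and 171 CPM there, against 5.23 to 20.3 CPM in the high-myocyte group. On day 7, 115 of its 462 spots held skeletal muscle RNA. In spots of mixed cells, more macrophages and more RNA per macrophage cannot be told apart.

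Among the genes for secreted proteins, Spp1 and Lgals3 were many times higher in the low-myocyte group of every section, and Apoe was higher there in 3 of 4. Spp1 (ENSMUSG00000029304, chromosome 5, 104435118 to 104441050, plus strand) encodes osteopontin, a matricellular ligand of integrins and CD44. In the low-myocyte group its level was 517, 2881, 554 and 28.8 CPM. The high-myocyte group held 6.54, 26.9, 2.30 and 0.476 CPM, the last of these from 2 UMIs. Osteopontin RNA was therefore concentrated in tissue poor in myocytes on every day, at 79.2 times (50.5 to 132), 107 times (88.2 to 132), 241 times (110 to 658) and 60.5 times (16.04 to 511) the high-myocyte level. The low-myocyte group held 76.1%, 93.9%, 92.6% and 92.3% of the section's Spp1 UMIs, while it held 22.9%, 19.2%, 15.8% and 13.3% of all UMIs. Exact Clopper-Pearson intervals of the Spp1 shares were widest on day 14, from 83.0% to 97.5%. The second group, next to it, still had 130 CPM on day 1 but 84.5, 17.7 and 0.634 CPM on the later days. In the third group of day 14 no Spp1 UMI was counted, where 3 counts, the limit that a count of 0 allows, are 0.639 CPM, and the Poisson interval reaches 0.785 CPM.

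Lgals3 (chromosome 14, 47367751 to 47386160, plus strand) encodes galectin-3, a secreted sugar-binding protein used as a marker of activated macrophages. Its level in the low-myocyte group was 164, 791, 316 and 60.0 CPM. In high-myocyte spots it was 7.57, 19.2, 5.76 and 2.85 CPM, so the low-myocyte spots held 21.7, 41.1, 54.9 and 21.0 times as much. Every low-myocyte value of Lgals3 lay above every high-myocyte value.

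Apoe (chromosome 7, 19696109 to 19699188, minus strand) encodes apolipoprotein E, the lipid carrier secreted by macrophages. It departed from the other 8 genes on day 1. Its low-myocyte level was 406, 5665, 6766 and 2153 CPM. High-myocyte spots held 542, 693, 704 and 559 CPM. Day 1 was the section in which Apoe was lower in tissue poor in myocytes, at 0.749 times (0.693 to 0.810) the high-myocyte level. On days 4, 7 and 14 it was 8.18, 9.61 and 3.85 times as high there. The low-myocyte group held 21.7% of the Apoe UMIs of the day 1 section, with an exact Clopper-Pearson interval of 20.6% to 22.9%, near its 22.9% of all UMIs, and 52.0%, 51.1% and 41.1% on the later days.

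Among the membrane proteins, Trem2 (chromosome 17, 48346401 to 48354147, plus strand), the lipid receptor, stood at 31.8, 164, 79.6 and 46.1 CPM in low-myocyte spots. Its high-myocyte level was 4.47, 8.69, 6.14 and 8.33 CPM. The ratio of the groups was thus 7.11 (3.95 to 13.9), 18.9 (13.3 to 27.8), 12.95 (7.65 to 23.4) and 5.53 (3.72 to 8.40). Gpnmb (chromosome 6, 49036546 to 49070929, plus strand) encodes a transmembrane glycoprotein of lysosomes and macrophages. Its low-myocyte level was 12.4, 252, 158 and 18.2 CPM, and its high-myocyte level 0.688, 6.06, 0.768 and 1.43 CPM. Both genes were higher in the low-myocyte group of every section, although the high-myocyte values of Gpnmb on days 1 and 7 rest on 2 UMIs each, and the ratios there, 18.1 (4.63 to 155) and 206 (56.5 to 1714), are known only within those wide intervals.

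**Figure D1:**
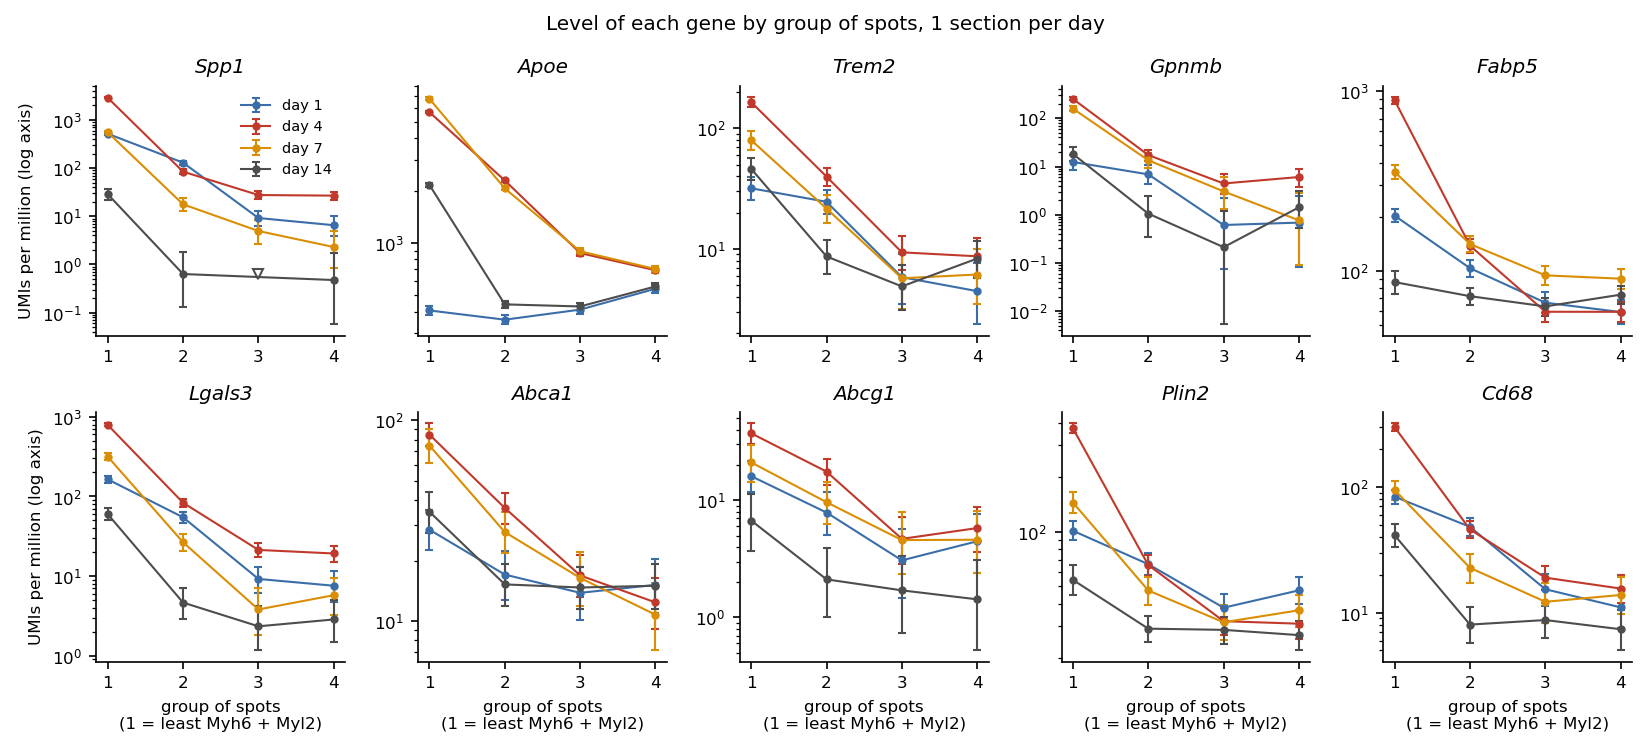
Level of each of the 9 genes and of Cd68 (CPM, logarithmic axis) in the 4 groups of spots of each section, ranked from the lowest to the highest Myh6 and Myl2 share, with 1 line a day and exact 95% Poisson intervals as bars. Spp1, Gpnmb and Lgals3 lie far lower in the high-myocyte than in the low-myocyte group on each day, and the Apoe line of day 1 is the one that ends higher than it begins; the open downward triangle marks the upper limit for Spp1 of 3 counts in the third group of day 14, where no UMI was counted.

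Genes for lipid binding, storage and export showed smaller contrasts than Spp1, Lgals3 and Gpnmb. Fabp5 (chromosome 3, 10012548 to 10016607, plus strand), a cytosolic carrier of fatty acids, had low-myocyte levels of 202, 887, 355 and 86.4 CPM and high-myocyte levels of 58.8, 59.0, 90.2 and 73.5 CPM. On day 14 its ratio, 1.17 (0.972 to 1.42), included 1. Plin2 (chromosome 4, 86648386 to 86670060, minus strand), which coats lipid droplets, was at 101, 372, 145 and 54.2 CPM against 47.5, 31.1, 36.9 and 26.9 CPM, ratios of 2.13, 12.0, 3.93 and 2.02. The day 4 section thus had the widest contrast for both.

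Of the exporters, Abca1 (chromosome 4, 53030787 to 53159895, minus strand) loads cholesterol onto apolipoproteins, and its level was 28.5, 84.8, 74.8 and 35.0 CPM against 15.1, 12.4, 10.8 and 15.0 CPM. Its ratios were 1.88 (1.29 to 2.79), 6.85 (4.99 to 9.58), 6.96 (4.56 to 10.9) and 2.34 (1.65 to 3.33). Abcg1 (chromosome 17, 31057675 to 31117988, plus strand), which exports cholesterol to high-density lipoprotein, was the gene with the fewest counts, 416 UMIs in all kept spots. Its levels were 16.1, 37.3, 21.1 and 6.72 CPM against 4.47, 5.79, 4.61 and 1.43 CPM. Both exporters were higher in the low-myocyte group of every section, and the intervals of their 4 ratios lay above 1.

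Fitted over the 4 sections, all 9 genes were higher in the low-myocyte than in the high-myocyte group. The fit was edgeR's quasi-likelihood test on UMI sums of the 16 groups of spots (4 a section) with section as a block, and p-values were adjusted by Benjamini-Hochberg over 11619 genes. Of these, 27.5% were called higher (3200 genes, with 2903 called lower), so a call by itself is common here. The median log2 fold change was 1.59 for the 9 genes and 0.07 for all genes tested, and 8 of the 9, all but Apoe, had a higher CPM there in 4 of 4 sections, as did 54.1% of all genes. Spp1 had a log2 fold change of 6.16 (SE 0.58, adjusted p = 6.8e-06), Gpnmb 4.52 (SE 0.47, adjusted p = 1.03e-05), Lgals3 4.44 (SE 0.32, adjusted p = 8.66e-07) and Trem2 2.67 (SE 0.29, adjusted p = 1.01e-05). Cd68, a lysosomal protein of macrophages that serves as their marker, had 2.54 (SE 0.28, adjusted p = 1.11e-05). The lipid genes followed with smaller values: Abcg1 1.59 (SE 0.21), Fabp5 1.47 (SE 0.37), Apoe 1.42 (SE 0.44), Plin2 1.37 (SE 0.28) and Abca1 1.29 (SE 0.22). The call for Apoe was lost when a section was left out, except for day 1: its log2 fold change and adjusted p were 1.24 and 0.111 without day 4, 1.03 and 0.126 without day 7, and 1.34 and 0.0889 without day 14. The section block takes up differences in level between the 4 mice. The fit's p-values rest on how evenly the 4 groups of spots differed from section to section, each of another day. They treat the groups of a section as separate libraries. When libraries were scaled by total UMIs instead of edgeR's TMM factors, 6762 genes were called higher and 1235 lower, the median of all genes was 0.71, and all 9 genes were still called higher, with log2 fold changes of 1.93 to 6.91.

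**Figure D2:**
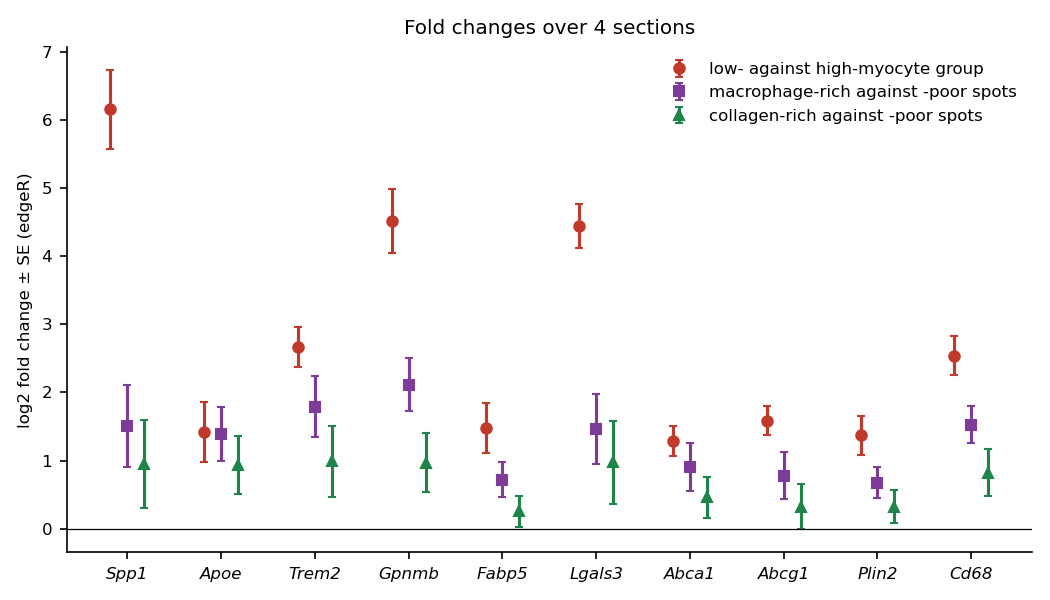
Log2 fold change with its standard error for the 9 genes and Cd68 from edgeR in 3 comparisons, with section as a block: the low-myocyte against the high-myocyte group, and, within the low-myocyte group, the macrophage-rich against the macrophage-poor and the collagen-rich against the collagen-poor spots. Spp1 lies highest in the first comparison, at 6.16, and the values of the 9 genes shrink from the first comparison to the third.

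Counted per Cd68 UMI, Spp1, Gpnmb and Lgals3 were higher in the low-myocyte group and most of the lipid genes were lower. For several of the latter and for Trem2, the direction in some sections depended on the macrophage marker used, while the mean difference kept its sign. This ratio asks whether a gene differed more or less between the groups than a general macrophage marker did, with section as the pair; an exact two-sided sign permutation over 4 sections cannot go below p = 0.125, so directions are given with their counts. Spp1, Gpnmb and Lgals3 were higher per Cd68 UMI in the low-myocyte group of 4 of 4 sections, by a mean log2 difference of 3.61 (SD 1.11), 2.12 (SD 1.87) and 1.88 (SD 0.82). Fabp5, Plin2 and Abcg1 were lower there in 4 of 4 sections, by -1.14 (SD 0.81), -1.20 (SD 0.55) and -0.87 (SD 0.58). For each of these 6 genes the exact p was 0.125, the smallest possible. Apoe (-1.16, SD 1.62) and Abca1 (-1.18, SD 0.87) were lower in 3 of 4 sections, at an exact p of 0.25 each. Trem2 differed by 0.20 (SD 0.49, exact p = 1.0), less than the spread between sections, with 0.380, 0.549, 0.842 and 1.12 Trem2 UMIs per Cd68 UMI among low-myocyte spots and 0.406, 0.559, 0.444 and 1.13 in the high-myocyte group. These Trem2 values lay farthest apart on day 7, where their intervals, 0.653 to 1.08 and 0.230 to 0.822, still overlapped. The high-myocyte value of that day rests on 16 Trem2 and 36 Cd68 UMIs. High-myocyte Cd68 counts were small, 31 to 59 UMIs a section.

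With the 12-gene macrophage list (677 to 953 UMIs in the high-myocyte group) in place of Cd68, 4 of the 9 genes were higher in the low-myocyte group of 4 of 4 sections. These were Spp1, by a mean log2 difference of 4.17 (SD 0.75), Gpnmb (2.68, SD 1.37), Lgals3 (2.45, SD 0.45) and Trem2 (0.76, SD 0.53), each at an exact p of 0.125. Trem2 UMIs per UMI of the list were 0.0501, 0.0667, 0.0345 and 0.0506 in low-myocyte spots and 0.0192, 0.0346, 0.0234 and 0.0455 in the high-myocyte group. Abca1 was lower in 4 of 4 sections (-0.62, SD 0.33, exact p = 0.125). Fabp5 was higher on days 1 and 4 and lower on days 7 and 14 (-0.57, SD 1.27, exact p = 0.5). Plin2 (-0.63, SD 0.74, exact p = 0.25), Apoe (-0.59, SD 0.87, exact p = 0.25) and Abcg1 (-0.31, SD 0.59, exact p = 0.375) were lower in 3 of 4 sections. Fabp5, Plin2 and Abcg1 thus did not keep, against the list, the direction in every section that they had against Cd68.

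Over the days, the ratio to Cd68 moved differently from gene to gene in the low-myocyte group. Spp1 per Cd68 UMI was 6.18 (5.37 to 7.14), 9.63 (8.97 to 10.4), 5.86 (4.89 to 7.07) and 0.698 (0.493 to 0.981). Apoe went from 4.85 (4.20 to 5.62) to 18.9 (17.7 to 20.3), 71.6 (60.5 to 85.2) and 52.2 (42.2 to 65.4). Gpnmb was highest on day 7, at 1.68 (1.35 to 2.08), with 0.148 on day 1, 0.844 on day 4 and 0.442 on day 14. Trem2 per Cd68 UMI was higher on each later day, and only the intervals of neighbouring days 7 (0.653 to 1.08) and 14 (0.826 to 1.51) overlapped. Plin2 stayed between 1.21 and 1.53 with overlapping intervals, so its changes over the days were close to those of Cd68. Per Cd68 UMI, Lgals3 (1.96, 2.64, 3.35 and 1.45) and Fabp5 (2.42, 2.96, 3.76 and 2.09) were highest on day 7. Abca1 was 0.341 and 0.284 on days 1 and 4 and 0.791 and 0.849 on days 7 and 14, while Abcg1 ranged from 0.125 to 0.223. These courses depended on the marker. Per UMI of the macrophage list, Trem2 was 0.0501, 0.0667, 0.0345 and 0.0506 in this group, so it was not higher on each later day. Apoe was 0.640, 2.30, 2.94 and 2.37 per list UMI, and Gpnmb was lower on day 7 (0.0688) than on day 4 (0.102). Spp1 per list UMI was again highest on day 4 (1.17) and lowest on day 14 (0.0316). The list itself held 1735, 6793, 3389 and 1897 UMIs in this group. Beside these, Lgals3 had 449, 2182, 465 and 125 UMIs and Fabp5 554, 2446, 522 and 180. Per list UMI, both were thus highest on day 4 and not on day 7. Abca1 had 78, 234, 110 and 73 UMIs, so per list UMI it was highest on day 1. Plin2 had 277, 1026, 213 and 113 UMIs, so per list UMI it was lower on days 7 and 14 than on days 1 and 4.

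**Figure D3:**
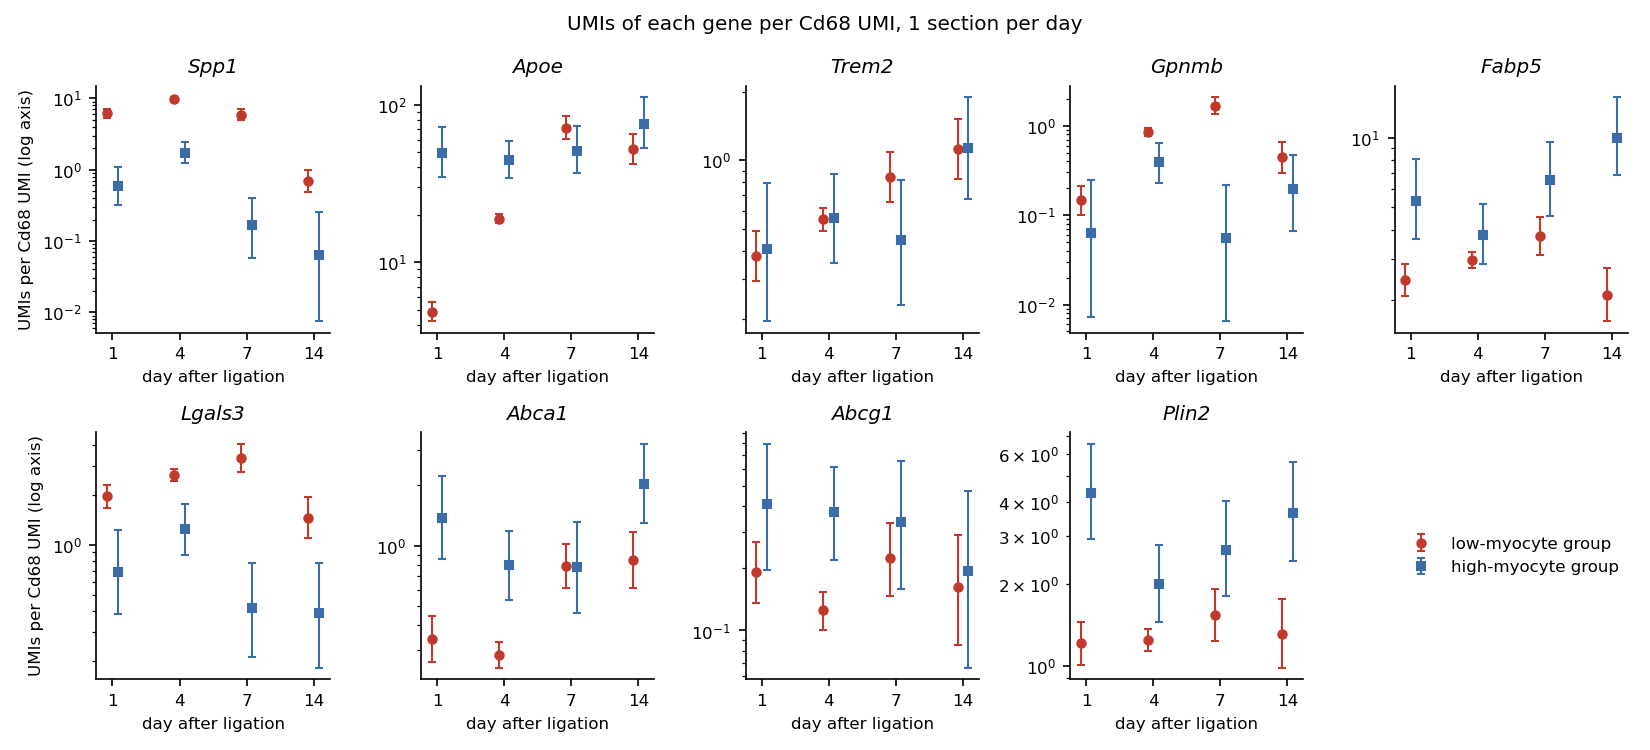
UMIs of each of the 9 genes per Cd68 UMI (logarithmic axis) by day in the low-myocyte and the high-myocyte group, 1 section a day, with exact 95% intervals as bars. Spp1 lies lowest in the low-myocyte group on day 14, at 0.698. Trem2 lies at about the same ratio in both groups except on day 7, where the intervals still overlap. Apoe in the low-myocyte group lies at 4.85 on day 1 and 71.6 on day 7.

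Apoe per macrophage UMI was also set against the summed macrophage list. In the day 1 section, low-myocyte spots held 0.640 Apoe UMIs per UMI of the list, the second group 0.898, the third 2.00 and high-myocyte spots 2.33. On the other days the 4 groups lay close together, at 2.30 to 2.80 on day 4, 2.48 to 2.94 on day 7 and 2.37 to 3.05 on day 14. This closeness held for the list and not for Cd68. Per Cd68 UMI, Apoe on day 4 was 18.9 (17.7 to 20.3) in low-myocyte spots, against 49.8, 45.9 and 44.6 in the other groups. On day 7 it was 71.6 in low-myocyte and 50.9 in high-myocyte spots, and on day 14 it was 52.2 and 75.7. Low-myocyte spots of day 1 thus held less Apoe per macrophage UMI than the high-myocyte spots of that section. The list of neutrophil genes was higher in this group than in the low-myocyte groups of the later days. The 6 genes of the monocyte list (Chil3, Plac8, Hp, Ccr2, Vcan and Ly6c2) summed to 322, 437, 451 and 126 CPM in the low-myocyte groups. This sum was thus not highest on day 1. The part of either list in the Apoe value was not tested.

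**Figure D4:**
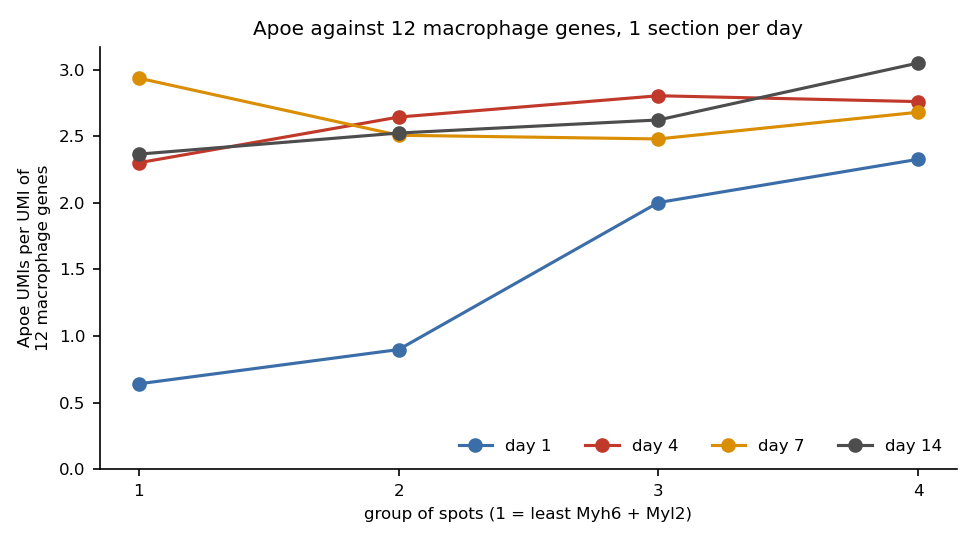
Apoe UMIs per UMI of the 12-gene macrophage list (linear axis from 0) in the 4 groups of spots of each section, ranked from the lowest to the highest Myh6 and Myl2 share, with 1 line a day and no error bars. The day 1 line runs from 0.640 to 2.33 and the lines of days 4, 7 and 14 stay between 2.30 and 3.05.

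From day 1 to day 4, all 9 genes were at least 2-fold higher in the low-myocyte group, as were 18.5% of all 11619 genes. Gpnmb differed most, 20.3-fold (14.4 to 29.6), then Apoe 14.0-fold (13.1 to 14.8), Spp1 5.57-fold (5.26 to 5.90), Trem2 5.17-fold (4.10 to 6.58) and Lgals3 4.82-fold (4.35 to 5.35). Abcg1, at 2.32-fold (1.62 to 3.39), had the least difference. Cd68 was 3.57-fold higher, the macrophage list stood at 634 and 2462 CPM, and with 1 mouse a day these differences cannot be told apart from differences between mice and in the size and position of the cut infarct.

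Day 7 was lower than day 4 by at least 2-fold for 5 of the 9 genes, against 5.89% of all genes: Spp1 (5.20-fold lower, 4.84 to 5.59), Plin2 (2.57-fold), Lgals3 (2.50-fold), Fabp5 (2.50-fold) and Trem2 (2.06-fold). Apoe did not follow them, with a day 7 level 1.19 times (1.16 to 1.22) that of day 4, and Abca1 was 1.13-fold lower with an interval that included no difference (0.900 to 1.44). Leaving out the skeletal muscle spots raised the day 7 level of Apoe from 6766 to 7325 CPM and left Spp1 at 553 CPM. Cd68 was lower on day 7 too, at 139 of 1470333 UMIs, against 825 of 2758599 on day 4. Lgals3, Fabp5 and Trem2 were thus lower in CPM but higher per Cd68 UMI on day 7. The macrophage list was nearly level, at 2462 CPM on day 4 and 2305 on day 7. Per UMI of this list, Lgals3, Fabp5 and Trem2 were lower on day 7 than on day 4.

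By day 14, all 9 genes were at least 2-fold lower than on day 4 in the low-myocyte group, as were 32.6% of all genes. Spp1 was 100.1-fold lower (77.7 to 131), Gpnmb 13.8-fold, Lgals3 13.2-fold and Fabp5 10.3-fold, while Trem2 (3.56-fold), Apoe (2.63-fold) and Abca1 (2.42-fold) differed least. The day 14 group held more muscle RNA than that of day 4, and the count differed with the spots compared. In the lowest 10% of spots of each section, 6 of 9 genes passed 2-fold, against 14.2% of all genes. In spots with a Myh6 and Myl2 share under 0.5% on every day, a limit chosen after the values were seen, 6 of 9 passed, against 15% of all genes. This limit left 337 spots on day 4 and 176 on day 14, with median shares of 0.12% and 0.165% and median depths of 5999 and 1228 UMIs a spot. Spp1 was lower on day 14 under each choice, by 35.2-fold (26.3 to 48.1) in the lowest 10% of spots and 23.8-fold (17.6 to 33.1) under the fixed limit, with 3720 CPM on day 4 and 156 on day 14 under the latter. Gpnmb, Fabp5, Lgals3 and Plin2 were also lower under each choice, by 3.57-fold, 6.38-fold, 2.82-fold and 2.58-fold under the fixed limit. The sixth gene past 2-fold there was Abcg1, 2.02-fold lower with an interval that included no difference (0.895 to 5.65), from 6 UMIs on day 14.

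Trem2, Apoe and Abca1 did not keep their lower day 14 level. Under the fixed limit, Trem2 was at 193 CPM on day 4 and 238 on day 14, a ratio of 1.23 (0.930 to 1.60), and in the lowest 10% of spots the ratio was 0.998 (0.752 to 1.31). Apoe turned around: in spots under the fixed limit it was at 6432 CPM on day 4 and 9249 on day 14, 1.44 times (1.38 to 1.50) as high, and 1.27 times (1.21 to 1.33) in the lowest 10% of spots. Abca1 was 1.51 times (1.04 to 2.14) as high under the fixed limit and 1.21 times (0.827 to 1.74) in the lowest 10% of spots. In spots under the same limit of muscle RNA, Spp1 was thus many times lower on day 14 than on day 4, and a difference in Trem2 was not detectable at this depth. Cd68 itself was 1.84-fold lower (1.39 to 2.48) under the fixed limit and 2.65-fold lower (2.00 to 3.55) in the lowest 10% of spots. In the low-myocyte group Cd68 made up 86 of 2083967 UMIs on day 14, against 825 of 2758599 on day 4.

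**Figure D5:**
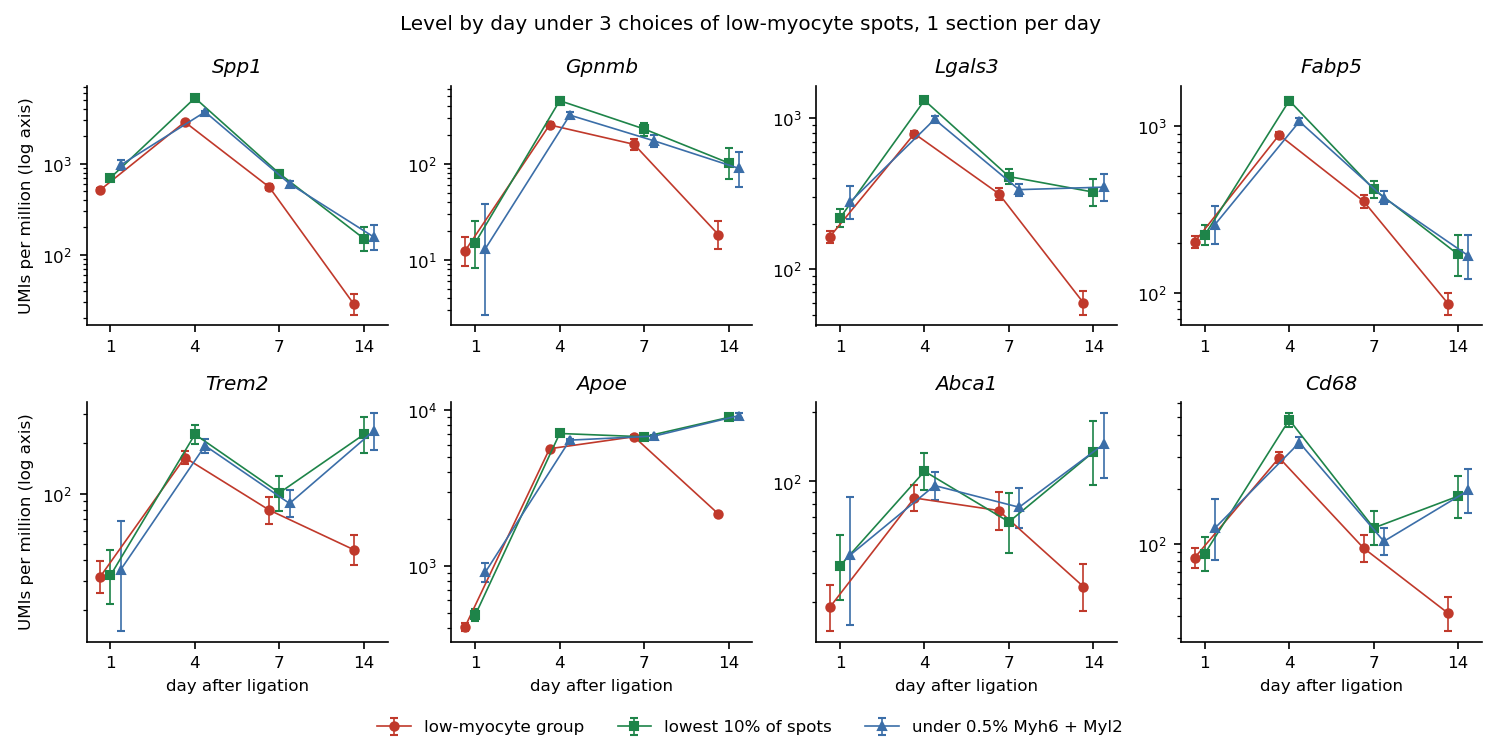
Level (CPM, logarithmic axis) of Spp1, Gpnmb, Lgals3, Fabp5, Trem2, Apoe, Abca1 and Cd68 by day, 1 section a day, in 3 choices of spots: the low-myocyte group, the lowest 10% of spots, and spots with a Myh6 and Myl2 share under 0.5%, with exact 95% Poisson intervals. Spp1 is lower on day 14 than on day 4 whichever spots are taken, while Trem2, Apoe and Abca1 are lower in the low-myocyte group and not detectably so under the other 2 choices. On day 7, 56 of the 185 spots of the lowest 10% and 110 of the 407 spots under 0.5% held skeletal muscle RNA. On day 1, the limit of 0.5% left 62 spots.

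In the high-myocyte group, Apoe (542 to 704 CPM), Abca1 (10.8 to 15.1), Fabp5 (58.8 to 90.2), Plin2 (26.9 to 47.5) and Trem2 (4.47 to 8.69) stayed within a 2-fold range over the days. Spp1, Gpnmb, Lgals3 and Abcg1 did not, and each was highest on day 4. Spp1 was at 26.9 CPM on day 4 and 0.476 on day 14, 56.5-fold lower with an interval of 15.2 to 473 from 102 and 2 UMIs.

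Within the low-myocyte group, spots were cut at the median share of the macrophage list into macrophage-rich and macrophage-poor spots of equal number, which asks whether the 9 genes lay where macrophage RNA lay. All of them except Abca1 were higher in the macrophage-rich spots of 4 of 4 sections, as were 36.1% of all genes. Spp1 was at 747, 3809, 857 and 131 CPM in the macrophage-rich spots and at 328, 2255, 318 and 1.82 CPM in the poor ones. Day 14 stood apart, with 57 Spp1 UMIs against 3 and a ratio of 72.0 (23.4 to 360), where the other days gave 2.28, 1.69 and 2.70. Trem2 did the same, at 198 against 6.06 CPM on day 14, a ratio of 32.6 (16.9 to 70.4), and 2.69, 2.33 and 3.54 on the earlier days. Apoe was at 7749 against 677 CPM on day 14, 11.4 times as high (10.7 to 12.3). The high-myocyte levels of the day 14 section were 8.33 CPM for Trem2, with an interval that overlapped that of the macrophage-poor spots, and 559 CPM for Apoe, below it. Muscle RNA differed across this cut too: 8 cardiomyocyte genes outside the ranking had a median log2 fold change of -1.23, none of them called. Spots of the day 14 low-myocyte group reached a Myh6 and Myl2 share of 1.94%. Depth differed as well: on day 14 the macrophage-rich spots held 434880 UMIs and the macrophage-poor ones 1649087. The totals lay closer on day 1 (1238448 and 1498317), day 4 (1111796 and 1646803) and day 7 (645521 and 824812). The part of muscle RNA and of depth in these ratios was not tested.

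Tested across all 8533 genes, none of these differences passed: edgeR called 0 of 9 genes and 0% of all genes at an adjusted p of 0.05 with 8 groups of spots. At an unadjusted p of 0.05, 8 of the 9 genes were higher, all but Abcg1, against 7.83% of all genes (668 genes). Log2 fold changes were 2.12 (SE 0.39) for Gpnmb, 1.79 (SE 0.45) for Trem2, 1.50 (SE 0.60) for Spp1, 1.46 (SE 0.51) for Lgals3 and 1.40 (SE 0.40) for Apoe, and 0.68 to 0.91 for Abca1, Abcg1, Fabp5 and Plin2, with adjusted p-values of 0.171 to 0.263. The median was 1.40 for the 9 genes and 0.01 for all genes. The count of calls changed with the section of day 14, since without it, edgeR called Spp1, Apoe, Trem2, Gpnmb, Fabp5 and Lgals3 higher, with 131 genes called higher in all. By DESeq2, 124 genes were called higher, among them Spp1, Apoe, Trem2, Gpnmb and Lgals3.

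Cut instead at the median share of the 6-gene collagen list, the same spots gave smaller differences. Here too, 8 of the 9 genes, all but Abcg1, were higher in the collagen-rich spots of 4 of 4 sections, as were 37.6% of all genes. In this cut edgeR called 0 of 9 genes and 0% of 8539 genes, and at an unadjusted p of 0.05 it found none of the 9 against 6.08% of all genes (519 genes) higher; DESeq2 called 56 genes higher, none of the 9. Fitted log2 fold changes were 0.94 to 0.99 for Spp1, Apoe, Trem2, Gpnmb and Lgals3 and 0.26 to 0.46 for Fabp5, Abca1, Abcg1 and Plin2, with a median of 0.94 for the 9 genes. Spp1 was nearly level across the cut on day 1, at 536 against 501 CPM, a ratio of 1.07 (0.962 to 1.19), but was 34.7 times (15.7 to 90.4) as high in the collagen-rich spots on day 14. The collagen-rich spots of day 14 held 373478 UMIs and the collagen-poor ones 1710489. Across this cut, 8 cardiomyocyte genes outside the ranking had a median log2 fold change of -1.46, none of them called. The difference between the macrophage and the collagen cut was not tested.

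The other genes of these pathways were read in the comparison of the low-myocyte with the high-myocyte group. Of all genes tested there, 27.5% were called higher and 25% lower. Of 10 partners of TREM2 signalling, 8 had enough UMIs for the test and all 8 rose, with a median log2 fold change of 1.55. They include Tyrobp, the adaptor of TREM2 (2.49), which was at 166, 596, 337 and 125 CPM in low-myocyte spots and at 23.3 to 38.7 CPM in high-myocyte spots. Vav1, a signalling factor of blood cells, rose by 4.11 and Ms4a6d by 3.45. Of 10 receptor genes for osteopontin, 7 rose and 1, Itgb6, fell, at a median of 1.19. CD44, a receptor for hyaluronan and osteopontin, had the widest difference: Cd44 rose by 3.89, with 129, 126, 110 and 38.4 CPM against 2.63 to 4.52 CPM. Integrin subunits Itgb3 and Itga4 rose by 3.11 and 2.88. When scaled by total UMIs, 8 of the 10 were called higher and none lower, beside 58.2% and 10.6% of all genes.

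In the lipid pathways some genes rose and others fell. Of 16 genes of cholesterol efflux, esterification and LXR, 4 rose and 3 fell, at a median of 0.12, where 27.5% of all genes rose and 25% fell. The esterifying enzyme Soat1 (3.46), the LXR target Arl4c (2.15), the lysosomal cholesterol carrier Npc2 (1.56) and the lysosomal lipase Lipa (1.22) rose, while Nceh1 (-1.50), Npc1 (-1.02) and Lpcat3 (-0.43) fell. Here the scaling mattered, since 12 rose and 1 fell when libraries were scaled by total UMIs, beside 58.2% and 10.6% of all genes, and Lpcat3 changed sign. Of 12 other lipid droplet genes tested, 9 fell and 2 rose, at a median of -1.08, opposite to Plin2. Plin5, the droplet coat of muscle that is tied to mitochondria, fell by 2.67, with 26.7, 7.61, 12.2 and 66.2 CPM against 81.4 to 115 CPM; Acsl1 and Dgat2, which activate fatty acids and make triglyceride, fell by 2.41 and 2.40. Acsl4 and Hilpda rose by 1.70 and 1.57. With total UMIs 6 of them were called lower and 2 higher, and Abhd5 and Dgat1 changed sign. Of 9 genes of lipid uptake tested, 4 rose and 5 fell. The scavenger receptors Marco (6.47) and Msr1 (3.47) and the lipoprotein receptor Lrp1 (1.41) were among those that rose, and Fabp3 (-2.51), Lpl (-2.21), Cd36 (-1.80), Vldlr (-1.53) and Fabp4 (-0.83) fell. Fabp3 is the fatty acid carrier of heart muscle, so the 2 carriers Fabp3 and Fabp5 differed in opposite directions. Cardiomyocyte genes outside the ranking fell in the same group, 8 of 8 at a median of -2.24.

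Further genes reported for lipid-laden macrophages rose in 12 of 14 tested, at a median of 1.52, with Itgax (4.90), the elastase Mmp12 (4.51) and the acid phosphatase Acp5 (4.14) first and Mitf (-1.40) the one that fell. Clec7a was not analysed here. Of 7 resident macrophage genes, 3 rose (Mrc1 1.40, F13a1 0.88, Gas6 0.79), at a median of 0.18. When scaled by total UMIs 5 rose, beside 58.2% of all genes. All 6 monocyte genes rose, at a median of 4.02. Lyve1 (0.17), Folr2 (0.10), Cd163 (0.18) and Cbr2 (-0.07) did not pass. All 4 neutrophil genes tested (S100a8, S100a9, Mmp9 and Csf3r), 6 of 6 genes of the collagen list and 6 of 8 fibroblast genes rose. So did 4 of 5 smooth muscle genes (Cnn1, Tagln, Acta2 and Mylk), while Myh11 did not pass. When scaled by total UMIs, all 5 were called higher, as were 58.2% of all genes. Of 3 mesothelial genes, 2 (Upk3b and Krt19) rose. The mesothelial list summed to 3.65, 5.80, 242 and 54.7 CPM in low-myocyte spots. Without day 7, 1 mesothelial gene was still tested and it was not called. Of 7 endothelial genes 1, Kdr, fell and none rose, while 5 rose and none fell when scaled by total UMIs, beside 58.2% and 10.6% of all genes. None of 3 adipocyte genes passed, and the 5 lymphocyte genes had too few UMIs to be tested. The lists that rose did so in the same spots as the 9 genes, and the share of each cell type in the values of the 9 genes was not tested. All 10 fast skeletal muscle genes were called higher, 5 of them by DESeq2, and they summed to 20340 CPM in low-myocyte spots on day 7, against 4.75 to 19.9 CPM on the other days. Without the skeletal muscle spots 2 of the 7 still tested were called higher, and without day 7 none had enough UMIs for the test.

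As a description, Pearson's r of log2(CPM + 1) was taken over the 16 groups of spots, which share sections and depth, against 7418 genes of at least 500 UMIs. Genes most like Spp1 were Tspan4 (0.982), Timp1 (0.968), Cd68 (0.965), Rusc2 (0.964) and Slc3a2 (0.960). For Trem2 they were Ctss (0.971), which encodes a lysosomal protease of macrophages, Tyrobp (0.971), Cybb (0.968), a subunit of the phagocyte oxidase, Naglu (0.967) and Tmem179b (0.966). Apoe was most like Mxd4 (0.983), Fndc1 (0.982), Thbs3 (0.981), Aspn (0.980) and Fibin (0.977); thrombospondin 3 and asporin are matrix proteins. Its r was 0.937 with the summed collagen list, 0.891 with the macrophage list and 0.665 with Cd68. The macrophage and collagen lists stood at 0.985 with each other. Plin2 was most like Ssr4 (0.986), Atp6v0c (0.980), Rpn2 (0.978), Ctsb (0.971) and Zfp330 (0.970). Between the 9 genes, Spp1 ran closest with Lgals3 (0.975) and least closely with Apoe (0.598), and Trem2 with Gpnmb stood at 0.954.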

How the data were processed

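UMI counts per gene and spot under tissue were deposited by the authors as raw counts. Per the labels and the study's methods they came from fresh frozen, 10x Visium sections aligned to mm10 with Space Ranger 1.3.0; Seurat 4.1.1 is also named in the submitters' processing notes. Groups are the days in the labels, with 1 section of 1 mouse each.

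Spots with a hemoglobin share (8 genes) above 1% were removed. The rest were ranked within each section on Myh6 and Myl2 share and cut into 4 equal groups. The lowest, low-myocyte group was cut once more in 2, by the share of the 12-gene macrophage list or the 6-gene collagen list. UMI sums were tested with edgeR 4.0.16 (quasi-likelihood, robust, TMM, section as a block) in R 4.3.3 with limma 3.58.1, over genes of at least 100 UMIs and without the genes that ranked the spots, at a Benjamini-Hochberg adjusted p of 0.05. Days were not tested, and a 2-fold difference was the rule of size. Levels carry exact Poisson 95% intervals, and ratios carry exact conditional ones. UMIs per Cd68 UMI, or per UMI of the macrophage list, were compared by an exact sign permutation over the 4 sections, with 0.5 UMIs in place of a count of 0. DESeq2 1.42.0 and other scalings, filters, group sizes and left-out sections were the alternatives. Python 3.11.15 (numpy 2.4.6, scipy 1.17.1, pandas 2.3.3, matplotlib 3.10.9) was used for sums, intervals and plots.

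The 9 genes, the 21 gene lists and the comparisons were chosen with earlier results of these data known. Genes named are the 9, Cd68, up to 3 genes of each list with the largest change past the threshold that was in the same direction in 4 of 4 sections, all genes of a list where 5 or fewer were counted (1 is not reported here), and 5 genes most like each of Spp1, Trem2, Apoe and Plin2; other names (Lyve1, Folr2, Cd163, Cbr2, Abhd5, Dgat1) that fall outside this rule were chosen after their values were seen. Ccr2, Vcan, Ly6c2 and Myh11 also fall outside this rule and are named to give their lists in full. The UMIs of the same molecule are counted once, so depth is the UMI total, and intervals do not cover the spread between mice.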

Additional observations from a re-analysis of the deposited data

Results flagged for a closer look

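The ratio of Apoe between the low-myocyte and the high-myocyte group was 0.749 on day 1 and above 1 on days 4, 7 and 14 (8.18, 9.61 and 3.85). The sections thus differed in direction, each from 1 mouse, and the difference between them was not tested. Of the low-myocyte group of day 1, 1111 UMIs were Apoe, and of the high-myocyte group 1575.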

How the results depend on the processing

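All 9 genes stayed higher in the low-myocyte group, in direction, under each alternative run, and the adjusted p of 8 of them stayed under 0.05; the Apoe call was lost without day 4, without day 7, without day 14 and with the lowest and highest groups alone (log2 fold change 1.44, adjusted p = 0.0864). Over all genes, the counts called higher and lower were 6762 and 1235 when scaled by total UMIs, and 1676 and 1548 among genes of at least 1000 UMIs, where fewer genes were tested and Abcg1 dropped out. They were 2227 and 1869 with the lowest and highest groups alone. Leaving out a section gave 2096 (without day 4) to 3036 genes higher, 1977 to 2776 lower and 8 to 9 of the 9 genes.

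In the macrophage cut, where 0 genes were called, DESeq2 called 124 higher and 298 lower with 5 of the 9 genes. Spots of at least 1000 UMIs gave 55 and 14 with 2 of the 9 genes (Trem2 and Gpnmb), and genes of at least 10 UMIs gave 1 higher. Leaving out a section gave 0 to 131 genes higher, 0 to 217 lower and 0 to 6 of the 9 genes, with 34 higher and 217 lower without day 1 and 131 and 19 without day 14. In the collagen cut DESeq2 called 56 higher and 270 lower, and leaving out a section gave 0 higher and 0 to 9 lower. The causes were not tested.

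The mean Trem2 difference per Cd68 UMI was 0.20 and turned to -0.047 without day 7 (-0.047 to 0.29 over the sections left out). With the macrophage list in place of Cd68, 4 of the 9 genes in place of 3 were higher in every section, and Trem2 was the one added. Per Cd68 UMI, this count also changed with the spots compared. It fell to 2 of the 9 genes when the spots were cut into smaller groups. It rose to 4 with larger groups, and to 4 without the hemoglobin filter. Groups of spots were paired by section throughout, and days, with 1 section each, could not be paired. Of the levels in the low-myocyte group, 117 of the recomputed CPM values moved beyond their counting interval and 207 did not, and of those per Cd68 UMI 14 moved and 274 did not. Low counts limit Abcg1 and the high-myocyte values of Spp1 and Gpnmb.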
